A study of Arabidopsis thaliana with 8 samples.

Results

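The psbB operon of the Arabidopsis thaliana plastid genome holds psbB, psbT, psbN, psbH, petB and petD. Its contacts were taken as all bin pairs with at least 1 bin in positions 72001 to 78000 of the plastid chromosome (Pt, TAIR10), which are 6 bins of 1 kb and 915 of the 12090 bin pairs of the map (7.57%). Hi-C, in which nearby DNA ends are ligated and each joined pair is counted by sequencing, had been applied to chloroplast material of the sample type membrane from leaves of 14-day-old wild type Col0 plants. Of 8 libraries, 4 were labelled as crosslinked with EGS (an amine-reactive chemical crosslinker) and formaldehyde, and are called EGS here. The other 4 were labelled non-crosslinked, are called nox here, and serve as the negative control of the design. The protocol text, which gives 45 min in EGS at 5 mM, then formaldehyde at 4% over 4 h, on chloroplasts from 5 g of rosette leaves, is the same for all 8, so the groups rest on the treatment label and the titles. Leaves were pooled within a preparation, and no label says whether replicates came from separate preparations, so p-values measure only the spread between these libraries. The counts cover plastid DNA only, and the labels leaf and membrane could not be checked against markers.

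The plastid psbB operon is transcribed as a unit and its long transcript is then cut and spliced into smaller ones. psbB encodes CP47, an inner antenna protein of the photosystem II core, psbT and psbH encode small photosystem II subunits, and psbN, which lies on the opposite strand, encodes a protein needed for assembly of photosystem II. petB encodes cytochrome b6 and petD subunit IV of the cytochrome b6f complex, which passes electrons from photosystem II towards photosystem I, and both genes contain an intron. All of these proteins reside in or assemble at the thylakoid membrane.

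Library totals were 543800, 520907, 368149 and 351828 contacts in EGS and 708524, 618672, 357017 and 408539 contacts in nox. The operon's pairs held 21111, 18948, 13158 and 12109 contacts in EGS and 24646, 20230, 11447 and 13243 contacts in nox. Contacts over 5 kb, counted with both copies of the inverted repeat as 1 place (folded distance), were far fewer. Over 864 operon bin pairs they averaged 5.14, 2.85, 1.85 and 1.07 contacts per pair in EGS, against 4.41, 2.78, 0.179 and 0.360 in nox. In EGS 11, 63, 156 and 325 of those pairs had no contact, and in nox 31, 78, 731 and 624 had none. Replicates 3 and 4 were the shallower ones in both groups, and nox replicates 3 and 4 hold under 1 long-range contact per pair, so single distant pairs cannot be read in them. Library totals of replicates 3 and 4 were similar in the 2 groups. Their contacts over 5 kb over the whole map were not, at 17671 and 11014 in EGS and 2655 and 4237 in nox.

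Across the operon, contacts over 5 kb did not shift in a single direction. The 5′ psbB bin and the bin shared by petB and petD had more of them in EGS than in nox, and the bin of the 3′ part of petD had fewer. The remaining 3 bins (the second psbB bin, the bin of psbT, psbN and psbH, and the petB bin) did not pass the test. Values here are CPM (counts scaled to a fixed library sum) of the long-range bin totals of a library after TMM scaling, tested over all bins of the map with edgeR's quasi-likelihood test and Benjamini-Hochberg adjustment.

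Among the photosystem II bins, the first psbB bin (72001 to 73000) had 7413, 8143, 8121 and 7240 CPM in EGS and 5873, 5880, 3662 and 5196 CPM in nox. Every EGS library lay above every nox library. Its log2 ratio of EGS over nox was 0.45 ± 0.10 (SE, n = 4 each; edgeR adjusted p = 0.00068). The second psbB bin (73001 to 74000) had 6723, 6459, 7260 and 6143 CPM in EGS and 6368, 6399, 4069 and 4083 CPM in nox, and the groups overlapped. Its log2 ratio was 0.16 ± 0.11 (edgeR adjusted p = 0.19). The bin of psbT, psbN, psbH and the start of petB (74001 to 75000) had 5782, 5380, 6050 and 5573 CPM in EGS and 6025, 5141, 4680 and 5196 CPM in nox, with overlap, and a log2 ratio of 0.05 ± 0.09 (edgeR adjusted p = 0.81).

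Among the cytochrome b6f bins, the bin that lies wholly inside petB (75001 to 76000) had 6947, 6819, 7448 and 6669 CPM in EGS and 5742, 6195, 6511 and 6929 CPM in nox. The groups overlapped through nox replicate 4, and the log2 ratio of 0.20 ± 0.09 missed the threshold (edgeR adjusted p = 0.063). The bin of the end of petB and the start of petD (76001 to 77000) had 7234, 7096, 8174 and 8425 CPM in EGS and 5742, 4952, 4883 and 7300 CPM in nox. It was higher in EGS, with a log2 ratio of 0.46 ± 0.11 (edgeR adjusted p = 0.0014), although nox replicate 4 lay within the EGS range. In the shallow replicates 3 and 4 alone its log2 ratio was 0.30 and did not pass (edgeR adjusted p = 0.21). The bin of the end of petD, which also holds a short stretch of rpoA (77001 to 78000), had 5719, 6361, 5835 and 6538 CPM in EGS and 8659, 9166, 7731 and 9774 CPM in nox. It was lower in EGS without overlap, with a log2 ratio of -0.55 ± 0.09 (edgeR adjusted p = 6.51e-05).

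Of all bins, 67.1% passed the same test (32.3% higher and 34.8% lower in EGS), and in 64.5% the groups did not overlap (2 of 6 in the operon), so 3 of 6 is not a result about the operon as a list. The median log2 ratio was 0.18 over the 6 operon bins and 0.05 over all bins, whose values ran from -2.26 to 1.68. Scaling by library totals, leaving out the repeat bins, or using same-bin counts as an offset called 5 of 6 bins, 4 higher and 1 lower, because the second psbB bin and the petB bin then passed too.

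The neighbouring bins varied as well. The 2 clpP bins directly upstream of the operon (clpP encodes a subunit of the stromal Clp protease) had log2 ratios of -0.86 ± 0.13 and -0.70 ± 0.10, each past the test by edgeR. The next bin upstream, of rps12 and the end of clpP, had 0.07 ± 0.09 and did not pass, and bins downstream are not given here.

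**Figure D1:**
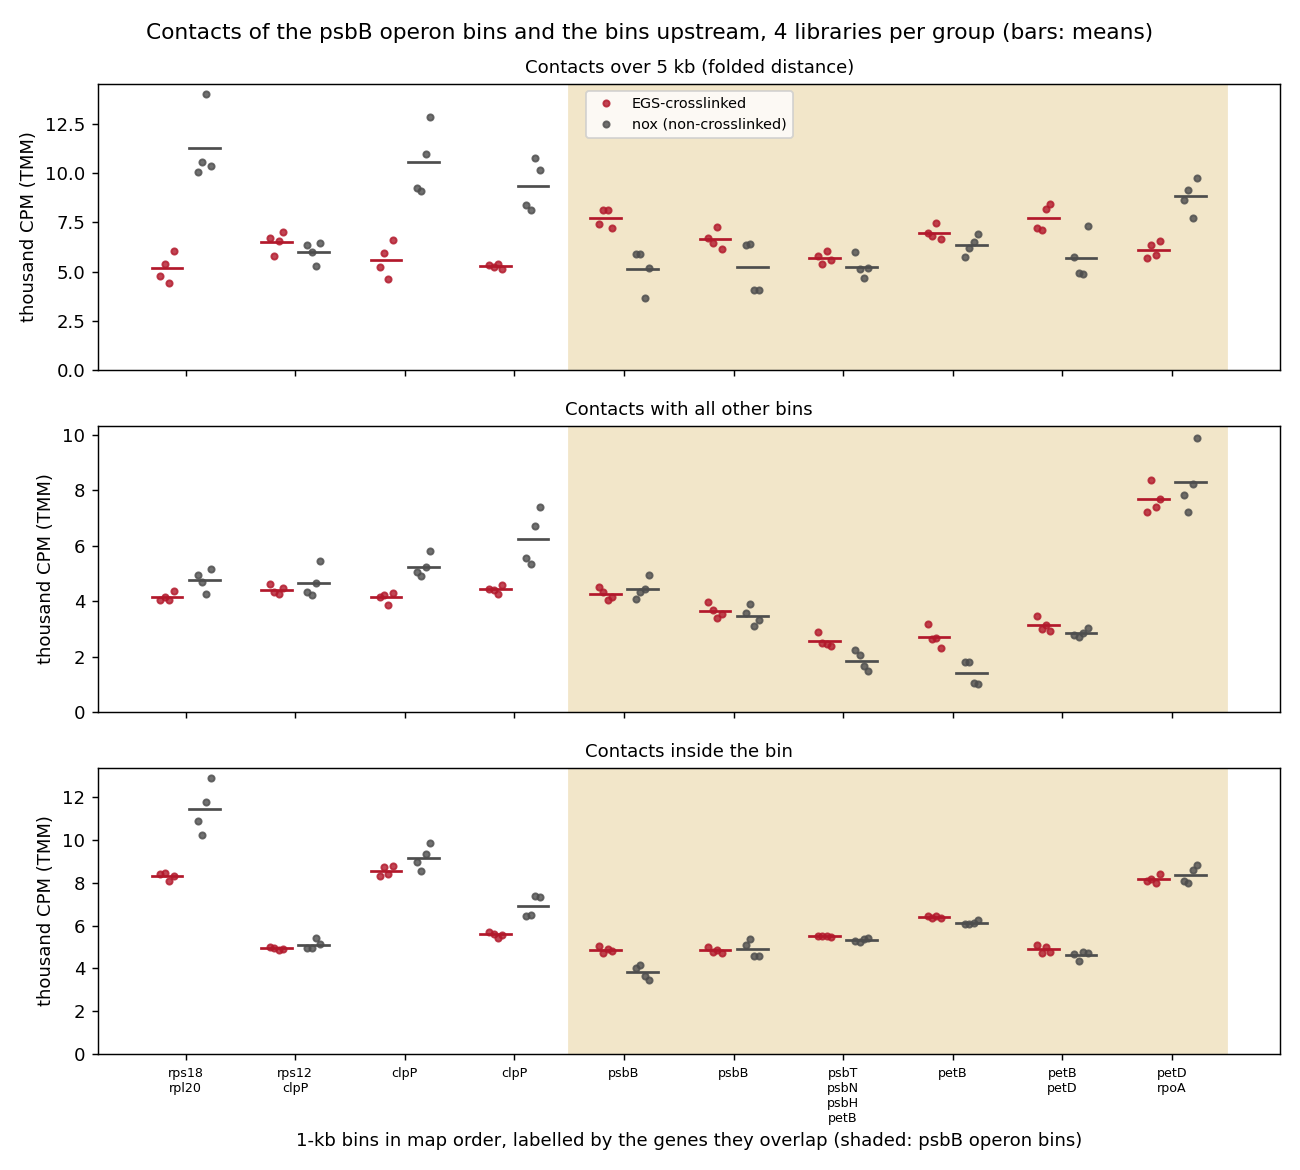
CPM after TMM scaling (vertical axis, in units of 1000 CPM) for the 6 operon bins and the 4 bins upstream of them, each of 1 kb and in map order, in EGS (left of each position) and nox (right), with 4 libraries as points and their means as bars. In the upper panel EGS lies above nox without overlap in the first psbB bin (means 7729 and 5153 CPM) and below it without overlap in the 3′ petD bin (6113 and 8833 CPM) and in the 2 clpP bins beside the operon.

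Contacts with all other bins together, adjacent bins included, gave another picture. The bin inside petB had 3193, 2625, 2667 and 2327 CPM in EGS and 1820, 1806, 1034 and 1008 CPM in nox, with no overlap. It was the only operon bin to pass, with a log2 ratio of 0.91 ± 0.24 (edgeR adjusted p = 0.00085). In the bin of psbT, psbN and psbH the totals were 2880, 2480, 2466 and 2377 CPM in EGS against 2235, 2044, 1654 and 1501 CPM in nox. These groups did not overlap either, but the log2 ratio of 0.45 ± 0.21 missed the threshold (edgeR adjusted p = 0.060). The other 4 bins had log2 ratios between -0.11 and 0.14 and overlapped between groups. Over all bins 48.4% passed (22.6% higher in EGS), and the median log2 ratio was 0.11 over the operon and -0.02 over all bins. The groups did not overlap in 45.2% of all bins (2 of 6 in the operon).

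The petB call was lost under 2 alternatives. With adjacent partners left out and the totals scaled anew, the log2 ratio was 0.83 and no longer passed (edgeR adjusted p = 0.28). The contacts left are those at 2 to 5 kb and those over 5 kb. Fitted and scaled apart, those at 2 to 5 kb gave the petB bin a log2 ratio of only 0.17 (edgeR adjusted p = 0.54). Those over 5 kb gave the small ratio above, which did not pass. The size of 0.83 thus depends on its scale. Scaled on contacts over 5 kb, which moved the median log2 ratio of all bins to -1.29, the petB bin stood at -0.05 and none of the 6 bins passed (0 also at an unadjusted p under 0.05).

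Counts inside a bin, of read pairs that stay within it, passed for 1 of 6 bins. Such counts were taken as a measure of how much of the bin is recovered, and contact within the bin was not measured apart from that. The first psbB bin had 5030, 4717, 4894 and 4836 CPM in EGS and 4037, 4145, 3639 and 3443 CPM in nox, a log2 ratio of 0.35 ± 0.06 (edgeR adjusted p = 0.0012) with no overlap. The other 5 bins did not pass and had log2 ratios between -0.04 and 0.09. Over the whole map 51.0% of same-bin counts passed, with a median log2 ratio of -0.01, against 0.05 over the operon. The groups did not overlap in 45.8% of all bins (3 of 6 in the operon).

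Along the operon, the contacts between neighbouring bins differed most around petB. Contacts of the psbT-psbN-psbH bin with the petB bin came to 675, 624, 646 and 566 CPM in EGS and to 258, 246, 199 and 192 CPM in nox, as CPM of all bin pairs. Contacts of the petB bin with the petB-petD bin came to 659, 556, 641 and 549 CPM in EGS and to 297, 293, 274 and 238 CPM in nox. In both pairs every EGS library lay above every nox library by a wide gap, while the groups did not overlap in 56.4% of all tested pairs either. Their log2 ratios were 1.45 ± 0.12 (edgeR adjusted p = 9.64e-06) and 1.10 ± 0.11 (edgeR adjusted p = 1.82e-05). Across the alternatives tried they ran from 0.98 to 1.61 and from 0.63 to 1.22. Without a filter on low counts neither passed (edgeR adjusted p = 0.054 and 0.27).

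The filter left 13 operon pairs to test, which are the 6 same-bin pairs and the 7 pairs of adjacent bins. Besides the 2 petB pairs, the pair of the 3′ petD bin with the rpoA bin was higher in EGS, with 4629, 5058, 4286 and 3948 CPM in EGS, 3975, 2949, 3234 and 4278 CPM in nox, and a log2 ratio of 0.31 ± 0.12 (edgeR adjusted p = 0.040). Its groups overlapped, and it lost its call without any 1 of EGS replicates 1, 2 or 3 or nox replicates 2 or 3 (log2 ratios 0.19 to 0.34). The pair that joins the 2 petD bins was lower, with 891, 899, 968 and 852 CPM in EGS and 1063, 1026, 1250 and 1395 CPM in nox (log2 ratio -0.38 ± 0.11, edgeR adjusted p = 0.0081). Same-bin contacts were lower too in this fit in 3 bins, the second psbB bin (-0.22), the psbT-psbN-psbH bin (-0.16) and the 3′ petD bin (-0.25), although in the fit of same-bin counts alone these bins stood at -0.02, 0.05 and -0.04 and did not pass. Without TMM none of these 3 passed, the psbT-psbN-psbH call was also lost without any 1 EGS replicate or nox replicate 3 or 4, and that of petD without EGS replicate 2 or 3. In all, 3 operon pairs were higher and 4 lower, where 61.4% of all 381 tested pairs passed (34.4% higher and 27.0% lower). The median log2 ratio was -0.12 over the 13 operon pairs and -0.00 over all tested pairs.

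With adjacent pairs fitted alone, an alternative that was added once the counts were known, the 2 petB pairs were still higher in EGS (log2 ratios 0.98 and 0.63). In that fit 4 of the other 5 pairs were lower, from clpP with psbB (-0.77) through psbB with psbB (-0.33) and psbB with psbT (-0.35) to petD with petD (-0.85). The signs of the 2 pairs that start in psbB, and of petD with rpoA (-0.15), thus turn with the scale. The sign of the 2 petB pairs was the same under every alternative run.

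Divided by the geometric mean of the same-bin counts of both bins, which needs no library scale, the petB pair towards psbH stood at 0.179, 0.168, 0.171 and 0.145 in EGS and at 0.0643, 0.0617, 0.0442 and 0.0440 in nox. The mean was 0.166 ± 0.014 in EGS and 0.0535 ± 0.0110 in nox (SD, n = 4 each), a ratio of 3.10. The petB pair towards petD averaged 0.168 ± 0.015 in EGS and 0.0705 ± 0.0109 in nox, a ratio of 2.38. Over all 83 pairs of adjacent bins in the large single copy region the ratio had a median of 1.43 and ran from 0.844 to 5.34. In 11 of the 83, which include both petB pairs, it was at least as high as at the petB pair towards psbH. In 20 it was at least as high as at the pair towards petD, so values this high were not particular to petB. In nox both petB pairs lay below the median of 0.182 of that region's pairs, and in EGS both lay below its median of 0.248.

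**Figure D2:**
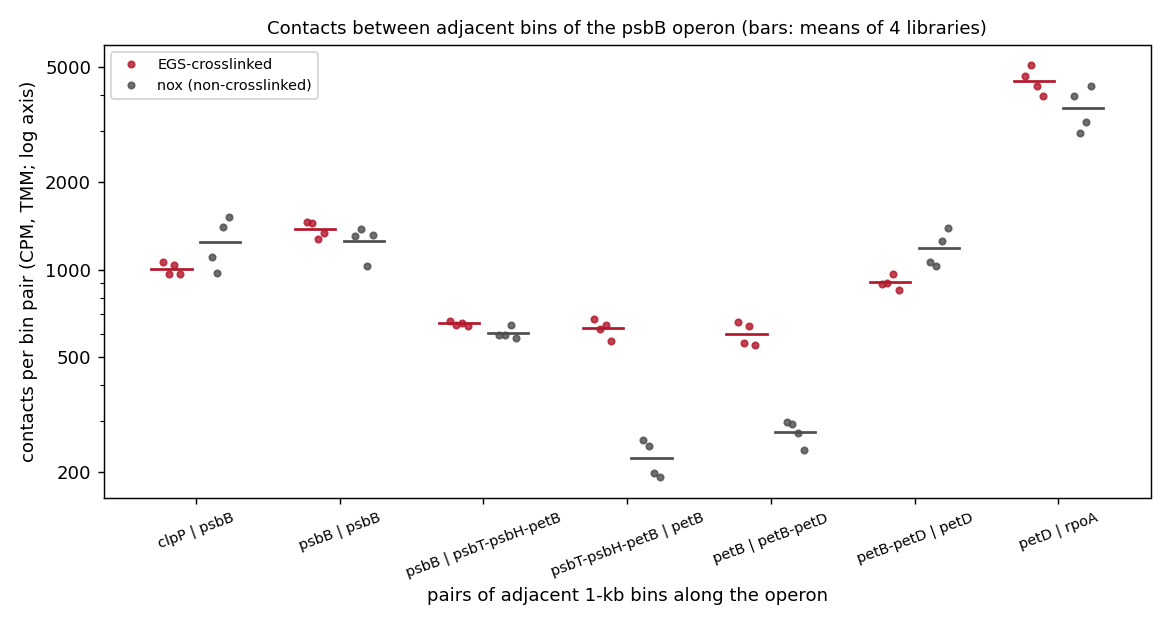
Contacts of the 7 pairs of adjacent bins (CPM of all bin pairs, log axis) in EGS (left) and nox (right), with 4 libraries as points and means as bars. The 2 pairs of the bin inside petB are separated by group, at 549 to 675 CPM in EGS and 192 to 297 CPM in nox.

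Beyond the adjacent bins, every EGS library had more contacts per pair at short than at long distance, but the difference from nox did not pass. Contacts per pair at 2 to 5 kb over those at 20 to 50 kb were 1.48, 1.91, 1.16 and 1.95 in EGS and 0.817, 0.861, 1.57 and 1.21 in nox. The means were 1.63 ± 0.38 in EGS and 1.11 ± 0.35 in nox (SD, n = 4 each), and the difference of 0.51 did not pass (exact permutation p = 0.14). In replicates 1 and 2 the difference was 0.86 and in replicates 3 and 4 it was 0.16, where the near contacts of nox numbered only 10 and 17. With near contacts counted out to 10 kb the difference was 0.39 and reached the smallest p that 4 against 4 libraries allow (exact permutation p = 0.0286).

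At 2 to 5 kb the operon's contacts per pair, relative to 21 to 50 kb, were 1.49, 1.91, 1.17 and 1.93 in EGS and 0.816, 0.859, 1.54 and 1.20 in nox. The other bins of the large single copy region had 2.12, 2.38, 2.78 and 2.47 in EGS and 0.948, 0.948, 0.636 and 0.862 in nox. In each EGS library the operon's value was the lower one, and in nox replicates 3 and 4 it was the higher one, a difference between bins that was not tested.

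**Figure D3:**
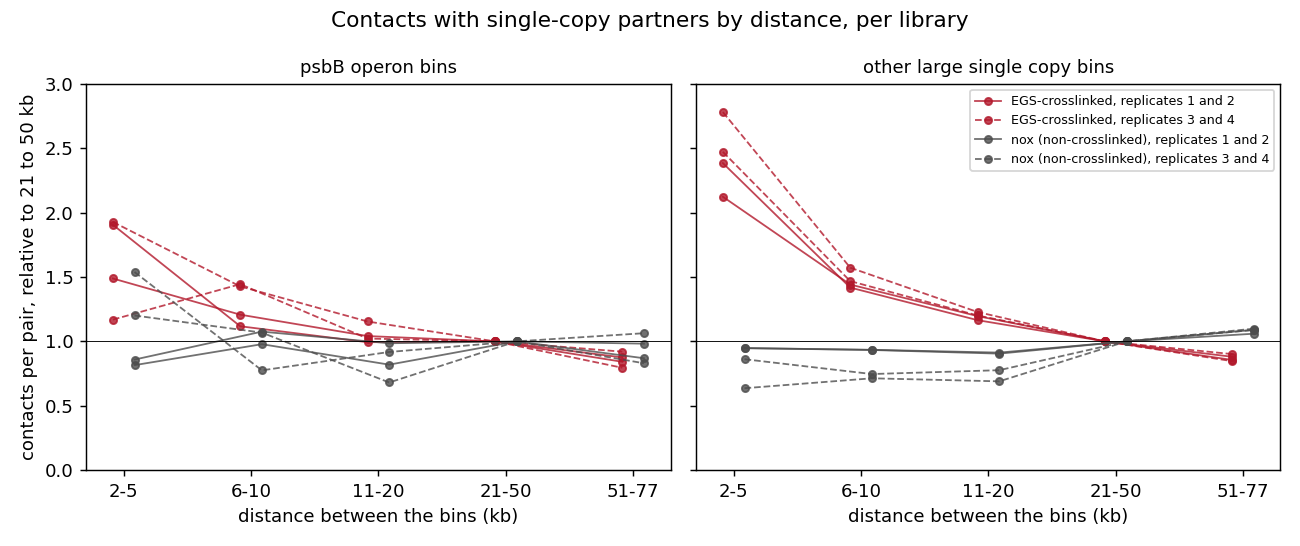
Contacts per bin pair with single-copy partners, relative to those at 21 to 50 kb in the same library (vertical axis), by distance between the bins in kb, for the psbB operon bins (left panel) and the other large single copy bins (right panel). At 2 to 5 kb the operon stands at 1.17 to 1.93 in EGS and 0.816 to 1.54 in nox, so the groups overlap there, while the other bins stand at 2.12 to 2.78 in EGS and 0.636 to 0.948 in nox.

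Contacts between non-adjacent bins inside the operon were few, at 125, 102, 35 and 27 in EGS and 46, 30, 3 and 5 in nox. Divided by the number expected from the library's mean at the same distance, they came to 1.08, 1.26, 0.704 and 0.882 in EGS and to 0.747, 0.777, 1.11 and 0.886 in nox. Both groups thus lay around the level of other bins at that distance. The log2 values averaged -0.06 ± 0.36 in EGS and -0.20 ± 0.26 in nox (SD, n = 4 each), and the difference of 0.14 did not pass (exact permutation p = 0.57). It was 0.62 in replicates 1 and 2 and -0.33 in replicates 3 and 4.

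Short-range totals per bin, over partners 2 to 5 kb away, passed for 2 of 6 bins, where 52.9% of all bins passed (28.4% higher and 24.5% lower in EGS). The first psbB bin was higher in EGS (log2 ratio 0.55 ± 0.25, edgeR adjusted p = 0.043) and the 3′ petD bin lower (-0.67 ± 0.24, edgeR adjusted p = 0.0084). These rested on 88, 66, 31 and 24 contacts in EGS and 35, 15, 3 and 5 in nox for psbB, and on 57, 46, 16 and 19 in EGS and 44, 43, 2 and 5 in nox for petD. On the CPM scale of the test the psbB groups overlapped, at 5209 to 6728 CPM in EGS and 2864 to 7915 CPM in nox, with nox replicates 3 and 4 above every EGS library. The psbB call was lost without any 1 of EGS replicates 1, 2 or 4 or nox replicates 1 or 2, and the petD call without nox replicate 2, so neither is firm. Over 5 neighbouring bins on either side and leaving out the adjacent bin, contacts upstream over contacts downstream were 1.14, 1.23, 1.10 and 1.08 in EGS and 1.03, 0.763, 1.00 and 1.47 in nox, and these ranges overlap.

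By class, 53.3% to 66.1% of the operon's contacts in EGS and 61.4% to 75.3% in nox lay inside 1 bin, and 24.0% to 27.6% in EGS and 21.2% to 26.9% in nox joined adjacent bins. The share at 2 to 5 kb was 1.66%, 1.43%, 0.745% and 0.710% in EGS and 0.702%, 0.524%, 0.114% and 0.166% in nox, with no overlap. The means were 1.14% ± 0.48 in EGS and 0.376% ± 0.283 in nox (SD, n = 4 each), at the smallest p the design allows (exact permutation p = 0.0286, 0.067 adjusted over 7 shares). The share over 5 kb was 21.04%, 13.0%, 12.1% and 7.64% in EGS and 15.4%, 11.9%, 1.35% and 2.35% in nox, and the groups overlapped (exact permutation p = 0.23).

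By region, the operon's contacts over 5 kb were distributed differently in each library of the 2 groups, although no share passed after adjustment. The inverted repeat, which carries the ribosomal RNA genes and ycf2, received 35.2%, 33.1%, 36.0% and 34.1% of them in EGS and 26.0%, 28.9%, 20% and 19.3% in nox. The small single copy region, which carries most ndh genes and ycf1, received 10.1%, 11.5%, 10.1% and 11.03% in EGS and 16.3%, 13.9%, 21.3% and 28.0% in nox. Neither pair of groups overlapped. The inverted repeat averaged 34.6% ± 1.3 in EGS and 23.5% ± 4.7 in nox, and the small single copy region 10.7% ± 0.7 in EGS and 19.9% ± 6.2 in nox (SD, n = 4 each). Each difference had an exact permutation p of 0.0286, the smallest possible, and 0.067 after adjustment over the 7 shares, so none of the 7 passed. With so few of the 7 at that smallest p, none could have passed. The inverted repeat difference was 6.75 percentage points in replicates 1 and 2 and 15.4 in replicates 3 and 4, and the small single copy difference -4.32 and -14.1 points. A share of contacts over 5 kb in 1 library has a 95% Wilson interval that reaches at most 7.87 points to either side, widest in nox replicate 3.

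The same shift was present in the other bins of the large single copy region. There the inverted repeat received 35.2%, 31.1%, 33.5% and 31.3% in EGS and 26.0%, 25.7%, 18.5% and 21.9% in nox. The operon's share minus that of the other bins averaged 1.81 ± 1.20 points in EGS and 0.51 ± 2.45 points in nox for the inverted repeat, and -0.47 ± 0.23 points in EGS and -0.31 ± 4.96 points in nox for the small single copy region (SD, n = 4 each). These differences between groups did not pass (exact permutation p = 0.40 and 1.0), so no shift particular to the operon was detected.

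**Figure D4:**
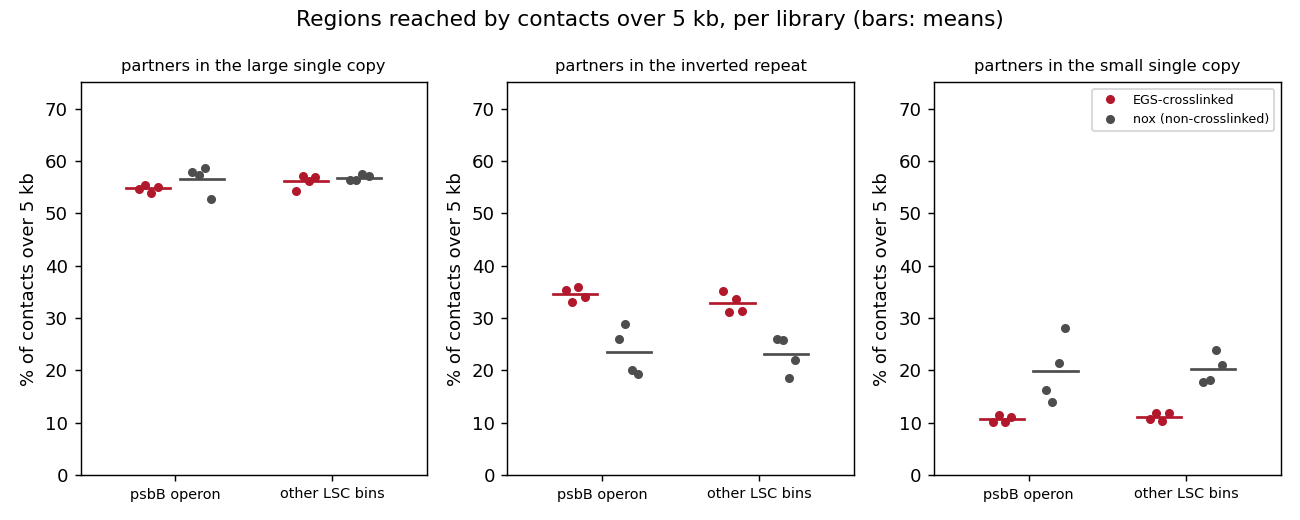
Percent of contacts over 5 kb that reach the large single copy region, the inverted repeat and the small single copy region (3 panels), for the psbB operon bins and for the other large single copy (LSC) bins, in EGS (left) and nox (right), with libraries as points and means as bars. EGS lies above nox in the inverted repeat panel (operon means 34.6% and 23.5%) and below it in the small single copy panel (10.7% and 19.9%), for the operon and for the other bins.

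By partner, the summed contacts of the 6 operon bins with each bin outside passed for 17 partners that were higher and 18 that were lower in EGS, which is 23.5% of all. Of 54 inverted repeat bins 9 were higher and 1 lower (median log2 ratio 0.30), of 17 small single copy bins 8 were lower and none higher (median -0.59), and of 78 large single copy bins 8 were higher and 9 lower (median -0.07). Without TMM, where the 2 adjacent partners set the scale, 0 passed (12 at an unadjusted p under 0.05). With only the partners over 5 kb away, 34 of 139 passed with TMM and 34 without it.

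The higher partners were led by ycf2, which encodes a large protein of the chloroplast import motor. A ycf2 bin (146001 to 147000) had 39, 12, 9 and 4 contacts with the operon in EGS and 7, 1, 0 and 0 in nox, a log2 ratio of 1.79 ± 0.48 (edgeR adjusted p = 2.19e-05). Another (88001 to 89000) had 32, 14, 14 and 5 in EGS and 4, 7, 1 and 0 in nox, with 1.47 ± 0.44 (edgeR adjusted p = 3.01e-04), and its image in the other repeat copy (150001 to 151000) had 1.25 ± 0.39. Reads of the 2 copies cannot be told apart by sequence, so images are not independent. The image of the first of these bins (92001 to 93000) did not pass, with a log2 ratio of 0.66 (edgeR adjusted p = 0.13). Of the 16 bins that overlap ycf2, 8 were higher and none lower, with a median log2 ratio of 0.74. The last repeat bin of this group, which holds the end of ycf2, trnI, rpl23 and rpl2 (152001 to 153000), had 31, 18, 12 and 9 contacts in EGS and 13, 6, 1 and 0 in nox (1.07 ± 0.38), and its image (86001 to 87000) did not pass (0.46, edgeR adjusted p = 0.23). In the large single copy region, the bin of the tRNA gene trnV (51001 to 52000) had 51, 27, 18 and 17 in EGS and 18, 9, 0 and 3 in nox (1.23 ± 0.31).

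The lower partners were led by the bin of atpH, which encodes subunit c of the ATP synthase rotor (13001 to 14000), with 12, 8, 6 and 2 contacts in EGS and 35, 30, 1 and 4 in nox. Its log2 ratio was -1.56 ± 0.33 (edgeR adjusted p = 1.58e-06). The bin of the ribosomal protein gene rpl32 in the small single copy region (113001 to 114000) had 25, 12, 3 and 4 in EGS and 56, 27, 3 and 11 in nox (-1.51 ± 0.28). The bins of trnC (27001 to 28000), of ycf1, a subunit gene of the inner envelope translocon (125001 to 126000), and of rps16 with trnQ (6001 to 7000) had log2 ratios of -1.41 ± 0.31, -1.34 ± 0.30 and -1.19 ± 0.30. Raw counts of nox replicates 3 and 4 come from far smaller long-range totals than the others, so the counts of a pair of libraries are not on the same scale.

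No change of a partner was detected beyond the change of its own long-range total. With each partner's own long-range total outside the operon as an offset, which was added once the counts were known, 0 of 139 partners over 5 kb away passed by edgeR. In that fit 6 had an unadjusted p under 0.05, and the lowest adjusted p was 0.66.

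**Figure D5:**
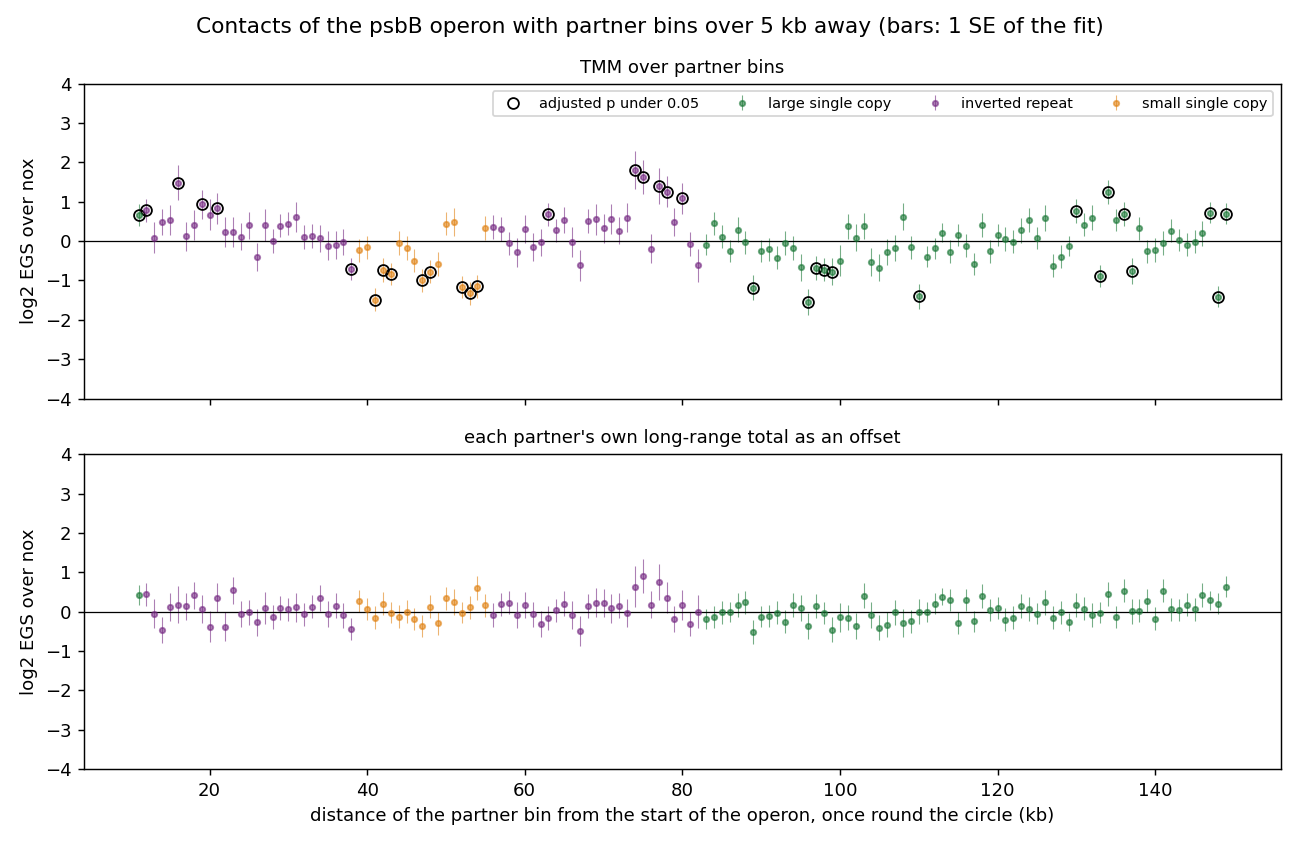
Log2 ratio of EGS over nox of the psbB operon's contacts with each partner bin over 5 kb away, against the partner's distance from the start of the operon once round the circular genome (kb), with 1 SE of the fit as bars and circled points past an adjusted p of 0.05. In the upper panel (TMM over partners) 34 of 139 are circled, and in the lower panel (each partner's own long-range total as an offset) none is.

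For 19 loci chosen for their role, contacts with the operon were divided by the number expected at that distance. With psbA, which encodes the D1 protein of photosystem II, the observed over expected value was 1.54, 1.24, 1.65 and 0.919 in EGS and 0.805, 0.723, 0.737 and 0.748 in nox. With psaA-psaB, the reaction centre genes of photosystem I, it was 1.26, 1.35, 1.34 and 1.01 in EGS and 0.978, 0.942, 0.741 and 0.756 in nox. With ycf2 it was 0.978, 0.840, 1.28 and 0.900 in EGS and 0.516, 0.597, 0.341 and 0.125 in nox. In these 3, in the rpoB operon of RNA polymerase subunits and in the rRNA genes rrn16S-rrn23S no nox library reached the lowest EGS library. The mean log2 differences were 0.79 for psbA, 0.54 for psaA-psaB, 1.54 for ycf2, 0.56 for the rpoB operon and 0.82 for rrn16S-rrn23S. In the same order they were 0.86, 0.44, 0.71, 0.20 and 0.23 in replicates 1 and 2. In replicates 3 and 4 they were 0.73, 0.64, 2.38, 0.93 and 1.42, where a nox library had only 4 to 25 contacts with a locus. Each of the 5 loci had the smallest p possible (exact permutation p = 0.0286), and after adjustment over 19 loci 0 of them passed (0.109). With only 5 of 19 loci at that smallest p, none could pass after adjustment, so the 0 does not show that the groups are alike. The 5 had an unadjusted p under 0.05. The number expected allowed for distance only, and not for a change in the long-range contacts of the locus itself. For the 2 psbA bins those had log2 ratios of 0.09 and 0.63. The larger share of the inverted repeat in EGS, which holds ycf2 and the rRNA genes, was also present in other bins, as given above. Whether the differences of the 5 loci are particular to the operon was not tested for whole loci.

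Other photosynthesis loci overlapped between the groups. psbD-psbC, genes of D2 and CP43 of photosystem II, had 1.31, 1.19, 1.22 and 1.12 in EGS and 1.22, 0.906, 0.176 and 0.849 in nox, where the value of nox replicate 3 rests on 1 contact, and a mean log2 difference of 0.92. Mean differences were 0.82 in psbK-psbI, 0.67 in atpB-atpE and 0.63 in psbE-psbF, which did not pass either (exact permutation p = 0.11, 0.11 and 0.20). In the same order they were 0.302, 0.196 and 0.481 in replicates 1 and 2, against 1.33, 1.14 and 0.782 in replicates 3 and 4. These last values rest on few nox contacts. There was 1 with psbK-psbI in nox replicate 4 and 1 with psbE-psbF in nox replicate 3. With atpB-atpE there were 2 and 3 in nox replicates 3 and 4. rbcL, the gene of the large Rubisco subunit, had a mean log2 difference of 0.01, the atpA operon of ATP synthase subunits 0.05 and petA, the gene of cytochrome f, 0.04. ndhF and ycf1 had 0.01 and -0.29, over bins of the small single copy region together with repeat bins beside it (9 bins in all for ycf1). Of the remaining loci, rpoA (-0.60), accD (-0.21) and clpP (-0.19) were lower in EGS, and ndhB (0.52) and ndhC-ndhK-ndhJ (0.27) higher. None of these passed (exact permutation p from 0.11 to 0.54), and nox replicates 3 and 4 had only 2 and 1 contacts with rpoA.

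Against other operons of the large single copy region, long-range contacts per bin were compared within each library. The operon had 740, 410, 266 and 154 contacts per bin in EGS and 634, 400, 25.8 and 51.8 in nox, and psaA-psaB had 776, 439, 270 and 166 in EGS and 603, 391, 23.4 and 40.6 in nox. The log2 ratio of the operon over psaA-psaB was -0.07 ± 0.04 in EGS and 0.15 ± 0.14 in nox (SD, n = 4 each), a difference of -0.22 with no overlap (exact permutation p = 0.0286, 0.043 adjusted over 3 operons). Over the rpoA operon of transcription and translation genes it was 0.27 ± 0.08 in EGS and -0.50 ± 0.22 in nox, a difference of 0.77 with no overlap (exact permutation p = 0.0286, 0.043 adjusted). Over psbD-psbC it was -0.06 ± 0.09 in EGS and -0.17 ± 0.22 in nox, with overlap (exact permutation p = 0.34). The unadjusted p of 0.0286 is the same smallest value as for the shares and loci above. It passed here because fewer tests were adjusted and most of them had that value. In EGS the psbB operon thus stood lower relative to psaA-psaB, and higher relative to the rpoA operon, than it did in nox.

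Within replicates 1 and 2 these differences were -0.14 for psaA-psaB, 0.57 for the rpoA operon and 0.14 for psbD-psbC, and within replicates 3 and 4 they were -0.31, 0.96 and 0.08. Without any 1 EGS replicate the adjusted p was 0.086 for psaA-psaB and for the rpoA operon, with differences of -0.21 to -0.24 and of 0.73 to 0.78. Without nox replicate 4 all 3 passed (psbD-psbC difference 0.22, exact permutation p = 0.0286 adjusted).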

How the data were processed

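Raw contact counts per bin pair were deposited by the authors as 1 table over 155 bins of 1 kb on the plastid chromosome. The submitters' processing notes name Trim Galore 0.4.1, Juicer and the build TAIR10. The ligation enzyme, removal of duplicates and handling of reads in the inverted repeat are not given in the sources used here. All 8 count columns matched a sample title, and 0 columns were left unmapped.

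Genes were assigned to bins from a RefSeq table of plastid genes (TAIR10.1), whose coordinates are not printed because the assembly names differ. Folded distance treats bins of the inverted repeat and their images as 1 place. Bin totals, totals over 5 kb, totals at 2 to 5 kb, same-bin counts, bin pairs (filterByExpr, minimum count 10) and partner sums were each fitted on the whole table with edgeR 4.0.16 in R 4.3.3 (TMM, quasi-likelihood test, prior count 2, adjusted p under 0.05). Fold changes are log2 of EGS over nox. SE was taken as the absolute log2 ratio of the test itself over the root of the F statistic. The printed log2 ratios were shrunken with the prior count, so in sparse rows they differ from the ratio to which the SE belongs. Values per library were tested by exact permutation (two-sided) over 70 assignments, with a smallest p of 0.0286. Python 3.11.15, numpy 2.4.6 and pandas 2.3.3 were used, and DESeq2 1.42.0 was an alternative.

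Named bins are all 6 operon bins, and the strongest partner bins in each direction (at most 5) that passed without overlap of the groups, with repeat images of some. Operon pairs were named from all 13 that were tested. Bins downstream of the operon are not reported one by one here. Members, loci and alternatives were chosen with earlier results of these data known. In simulated tables the fit recovered 100% of 30 bin totals changed 2-fold and of 30 long-range totals among 155, 98.3% of 60 pairs among 381 and 76.7% of 30 partners among 149. Of its calls there, 6.25%, 3.23%, 3.28% and 0% were false. The simulation had equal numbers of rises and falls, the same dispersion in both groups and a smaller share of changed rows than passed in the data. It therefore does not measure recovery in the data, where most operon bins changed less than 2-fold. Intervals cover counting error only. No 2 libraries of a group agreed within sampling noise (lowest chi-square per degree of freedom 1.94). Same-numbered libraries deviated together in same-bin counts (correlations 0.343, 0.382, 0.203 and 0.586), so the numbers pair there by the data and not by the labels. They did not in long-range totals (0.438, -0.270, -0.271 and 0.234).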

Additional observations from a re-analysis of the deposited data

Results flagged for a closer look

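Of 124 groups of 4 libraries examined, 2 held a library far from the other 3 of its group, where chance gives about 1 in 20. Contacts inside the 3′ petD bin (77001 to 78000) were 5557 CPM in EGS replicate 4, against 5078 to 5120 CPM in the other EGS libraries. The observed over expected value of the operon's contacts with ndhF was 0.850 in EGS replicate 4, against 1.11 to 1.15 in the other EGS libraries.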

How the results depend on the processing

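The long-range calls of the first psbB bin (log2 ratios 0.27 to 0.66) and of the 3′ petD bin (-0.62 to -0.39) held under every alternative run, and that of the petB-petD bin under all but replicates 3 and 4 alone. The number of long-range bins called was 5 without TMM, without repeat bins and with the same-bin offset, and 3 without each library in turn. For bin totals, the replicate block, replicates 3 and 4 alone and the same-bin offset called 2 bins. Scaling on contacts over 5 kb, with the petB bin at -0.0490, and leaving out adjacent bins called 0. Leaving out 1 library called 1 to 2, the 2 without nox replicate 1. Short-range totals gave 0 calls with DESeq2 (0 also at an unadjusted p under 0.05) and in replicates 3 and 4 alone, where the first psbB bin turned to -0.31. They gave 4 with the replicate block and without repeat bins, and 0 to 4 without 1 library (4 without EGS replicate 3, 0 without nox replicate 2, 1 without EGS replicates 1, 2 or 4 or nox replicate 1). Replicates 1 and 2 alone called 16 of 25 bin pairs, and leaving out 1 library called 4 to 9 (4 without EGS replicate 2 or 3). The petD-rpoA pair turned to -0.18 without a filter and to -0.15 with adjacent pairs fitted alone, where psbB with psbB stood at -0.33 and psbB with psbT at -0.35.

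Partners called were 0 without TMM (12 at an unadjusted p under 0.05), 20 with DESeq2, 5 in replicates 3 and 4 alone, 21 of 114 after filterByExpr and 0 with the partners' own totals as an offset, where the trnC bin stood at 0.0045 and the ycf1 bin at 0.11. Without TMM the median of all partners moved to 0.42. Leaving out 1 library called 15 to 37 partners (22 without EGS replicate 1, 23 without EGS replicate 2, 15 without nox replicate 1, 23 without nox replicate 2). The near over far difference was 0.40 to 0.67 without 1 library and 0.39 for 2 to 10 kb, which passed (exact permutation p = 0.0286). The difference for contacts inside the operon was 0.01 to 0.29 without 1 library. Against other operons, 0 to 3 passed without 1 library (0 without any EGS replicate) and 0 with the replicate block, whose smallest possible p is 0.125. The block changed no call of same-bin counts. For class shares and partner loci it could not change a call, because none had passed and its smallest possible p there is 0.125. Where the labels' numbers did not pair the libraries, the block called 5 operon pairs and 27 partners. The cause of these changes was not tested. Contacts over 5 kb are sparse in nox replicates 3 and 4, at 0.179 and 0.360 per operon pair, with library totals of 357017 and 408539 beside 368149 and 351828 in EGS replicates 3 and 4.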
